A study of Mus musculus with 12 samples.

Results

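In splenic granulocytic suppressor cells of lymphodepleted mice, Retnlg, Prok2, Stfa1, Anxa1 and Tgm3 rose, Wfdc17 fell, and Asprv1, Stfa2l1 and Hdc did not pass the main test. Of these calls only those of Anxa1 and Tgm3 held in every other fit. Asprv1 and Stfa2l1 were higher in every library of lymphodepleted mice and passed in some other fits. The genes described here, for secreted proteins, stefins and enzymes of neutrophils, are Retnlg, Prok2, Asprv1, Wfdc17, Stfa1, Stfa2l1, Anxa1, Tgm3 and Hdc, 9 of the 23479 genes in the table, and all 9 passed the minimum level used for testing. They were chosen by their measured levels as genes of the PMN-MDSC population, so their levels in PMN-MDSC relative to M-MDSC are given as a description with no test. Earlier results of these data were also known at the choice. Counts of the 9 genes beside shares of all genes are therefore a description too, in every comparison. Myeloid-derived suppressor cells, MDSC, are immature or pathologically activated myeloid cells that build up in tumour bearers and restrain T cells, and they comprise a polymorphonuclear form (PMN-MDSC), close to neutrophils, and a monocytic form (M-MDSC).

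The cells came from spleens of C57BL/6 mice that bore B16 melanoma tumours, and total RNA was sequenced after depletion of ribosomal transcripts. The 4 groups were PMN-MDSC LD, PMN-MDSC Ctrl, M-MDSC LD and M-MDSC Ctrl, with 3 libraries each. LD mice had been given cyclophosphamide and fludarabine, drugs that remove lymphocytes, Ctrl mice were untreated, and spleens were taken 7 days after treatment. All groups carried the tumour, and the doses, the age and sex of the mice and the number of animals behind a library are not given in the sources used here. The labels do not say that the 3 libraries of a group came from separate animals, so p-values measure only the spread between these libraries, which may be technical.

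Neutrophils load ready-made proteins into granules while they mature in the marrow, and later release them together with signalling proteins made on demand. Stefins are small inhibitors of cysteine proteases such as the cathepsins, and in mice they form a cluster of near-identical genes. Annexin A1 is an abundant neutrophil protein that binds phospholipid in the presence of calcium and, once released, signals through formyl peptide receptors to limit further recruitment.

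Libraries held 8906045 to 16242926 recovered reads, and values are normalized counts, that is reads divided by 1 size factor per library, in which 1 read was worth 0.561 to 1.60. The labels fitted the mature neutrophil and monocyte markers, whereas early granule genes were higher in M-MDSC. A list of 20 mature neutrophil genes summed to 285438.7 to 338867.6 in PMN-MDSC LD and 331165.5 to 358811.9 in PMN-MDSC Ctrl, against 7551.1 to 9939.7 in M-MDSC LD and 9166.7 to 10122.7 in M-MDSC Ctrl. A list of 12 monocyte genes summed to 9530.0 to 12010.7 in PMN-MDSC LD and 11871.7 to 14913.9 in PMN-MDSC Ctrl, against 80075.5 to 98648.4 in M-MDSC LD and 111848.7 to 132795.0 in M-MDSC Ctrl. The sums of immature neutrophil genes, given below, were higher in PMN-MDSC. A list of 5 early granule genes went the other way. It summed to 57.4 to 547.8 in PMN-MDSC LD and 34.3 to 46.3 in PMN-MDSC Ctrl, against 1571.7 to 7419.5 in M-MDSC LD and 214.3 to 245.7 in M-MDSC Ctrl. Replicate 1 of each LD group stood apart from the other two libraries of its group. Mki67, a proliferation marker, had 6242.0, 1260.5 and 2024.9 normalized counts in PMN-MDSC LD replicates 1 to 3, against 1688.3, 2097.1 and 1901.1 in PMN-MDSC Ctrl, and it had 8133.0, 2434.4 and 3200.8 in M-MDSC LD, against 774.7 to 954.6 in M-MDSC Ctrl.

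In PMN-MDSC, 5 of the 9 genes rose after lymphodepletion (Retnlg, Prok2, Stfa1, Anxa1 and Tgm3), 1 fell (Wfdc17), and 3 did not pass the test (Asprv1, Stfa2l1 and Hdc) at an adjusted p under 0.05 with limma, adjusted over 11122 tested genes. Without PMN-MDSC LD replicate 3 the calls numbered 2 (Anxa1 and Tgm3), and without PMN-MDSC Ctrl replicate 3 they numbered 4 (Stfa1, Anxa1, Tgm3 and Wfdc17). With edgeR and with DESeq2 they numbered 7, with Asprv1 and Stfa2l1 gained and Wfdc17 lost. With the PMN-MDSC libraries fitted alone they numbered 8, all but Hdc. Of all tested genes 15.7% passed, 7.17% upward and 8.51% downward. The LD and Ctrl libraries did not overlap for any of the 9 genes, 8 being higher and 1 lower in every LD library, where 31.9% of all tested genes had groups that did not overlap (14.1% higher and 17.8% lower). The median log2 difference was 1.05 over the 9 genes and -0.05 over all tested genes. Since the 9 genes were chosen with earlier results of these data known, these counts and medians describe them. They do not test an excess over all genes. Together the 9 genes made up 0.519%, 0.555% and 0.627% of the normalized counts in PMN-MDSC LD replicates 1 to 3, against 0.316%, 0.297% and 0.285% in PMN-MDSC Ctrl. In such bulk libraries, fewer cells of a type and less RNA per cell cannot be told apart.

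**Figure D1:**
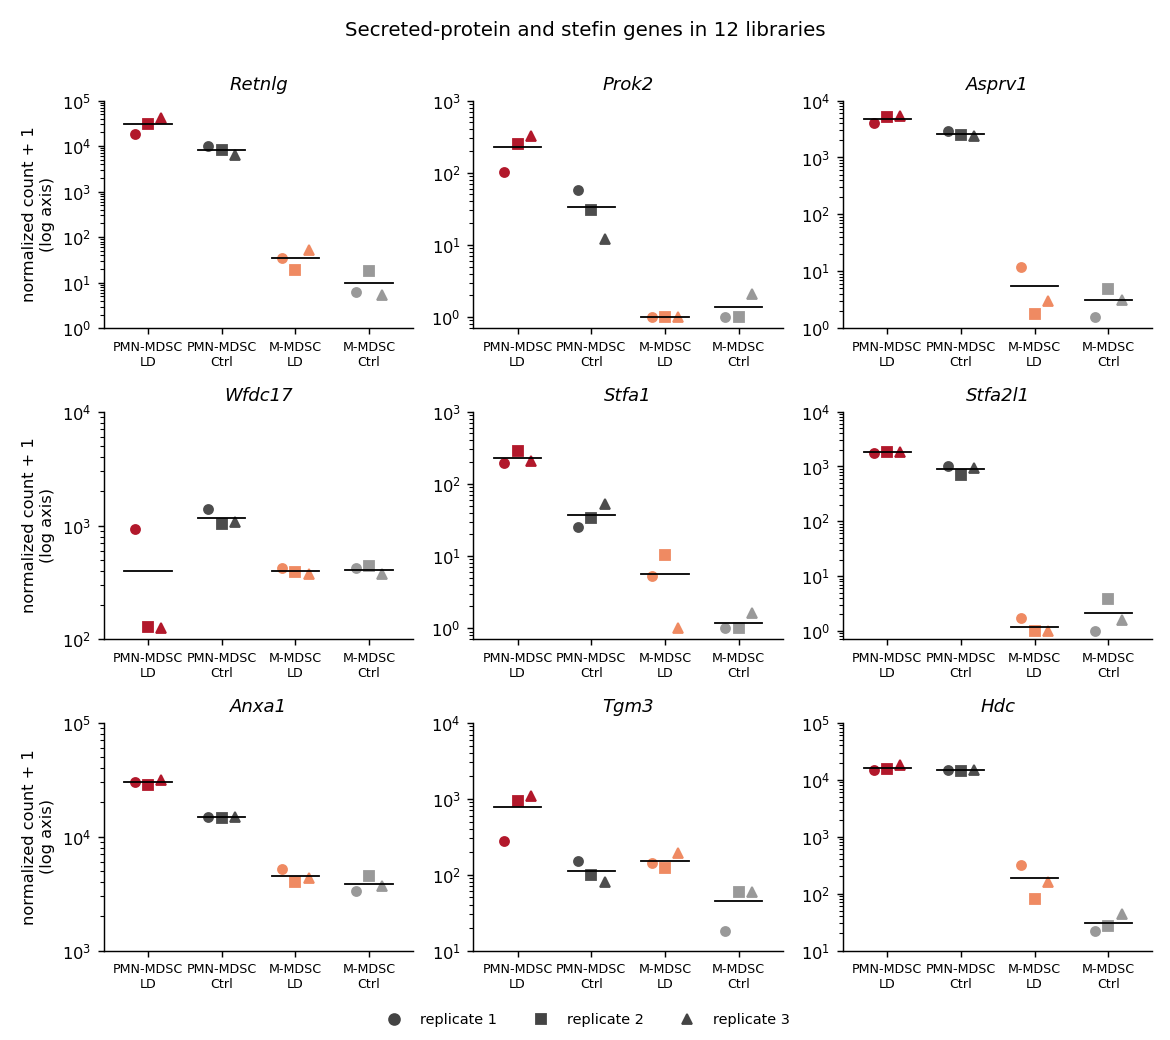
Normalized count + 1 on a log axis for the 9 genes in the 12 libraries, with 1 panel per gene, symbols for replicates 1 to 3 and a line at each group's mean. Retnlg, Anxa1 and Hdc reach the highest counts, Prok2 and Stfa2l1 are at or near 0 in M-MDSC, and Wfdc17 splits the PMN-MDSC LD libraries into 937.3 against 126.5 and 124.8.

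Retnlg, at chr16:48872608-48874498 of GRCm38.p6, encodes resistin-like gamma, a cysteine-rich protein secreted by neutrophils. It had 18873.5, 30676.7 and 40909.2 normalized counts in PMN-MDSC LD, against 10150.0, 8112.5 and 6432.7 in PMN-MDSC Ctrl. Every LD library was above every Ctrl library, and LD replicate 1 was the lowest of its group. The log2 difference on the log2(normalized count + 1) scale was 1.83 ± 0.43 (SE), a 3.55-fold higher level (limma adjusted p = 0.0116). It missed the threshold without PMN-MDSC Ctrl replicate 3 (1.66, adjusted p = 0.0571) and without PMN-MDSC LD replicate 3 (1.57, adjusted p = 0.0519). Of the 4 resistin family genes 2 passed the minimum level, and Retnlg was the one that rose. Over the 12 libraries the genes whose centred log2 profiles were closest to Retnlg, among 7381 genes with a mean of at least 100, were Il1f9 and Amer2, with root-mean-square differences of 0.881 and 0.885.

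Prok2, on the minus strand at chr6:99711299-99726392, encodes prokineticin 2, also called Bv8, a secreted ligand known in mice as a G-CSF-induced neutrophil product that promotes tumour vessel growth. It had 101.4, 251.5 and 325.3 normalized counts in PMN-MDSC LD, against 57.1, 29.0 and 11.2 in PMN-MDSC Ctrl. The groups did not overlap, and both varied widely, with standard deviations of 114.1 around a mean of 226.1 in LD and 23.2 around 32.4 in Ctrl. On the log2 scale it was higher by 2.88 ± 0.69 (SE), or 7.35-fold (limma adjusted p = 0.0129). It missed the threshold without PMN-MDSC Ctrl replicate 3 (2.29, adjusted p = 0.068) and without PMN-MDSC LD replicate 3 (2.54, adjusted p = 0.0586). Of the 4 prokineticin ligand and receptor genes, Prok2 alone passed the minimum level, so its receptors were not tested in these cells. An annotated antisense gene, Gm26748, overlaps Prok2, and whether counting used strand is not given in the sources used here. The closest profiles over the 12 libraries were those of Nt5e, an ecto-enzyme that makes adenosine, with a root-mean-square difference of 0.756, and Mcam, with 0.985.

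Anxa1, on the minus strand at chr19:20373434-20390671, gave the tightest difference of the 9 genes. It had 29983.4, 28482.1 and 31237.5 normalized counts in PMN-MDSC LD, against 14972.1, 14628.0 and 14849.5 in PMN-MDSC Ctrl. The 3 LD libraries lay within 28482.1 to 31237.5, including replicate 1. The log2 difference was 1.01 ± 0.12 (SE), a 2.02-fold higher level (limma adjusted p = 0.000185), and it passed the test with each of the 12 libraries left out in turn. An annotated noncoding RNA gene on the opposite strand overlaps Anxa1. In the annexin family, 5 of the 9 tested genes rose and none fell. Anxa5, the annexin widely used to stain dying cells, averaged 498.5 ± 59.5 in PMN-MDSC LD and 242.0 ± 40.6 in PMN-MDSC Ctrl (SD, n = 3 each), a log2 difference of 1.05 ± 0.13 (limma adjusted p = 0.000304). Anxa3 averaged 1050.5 ± 299.6 in PMN-MDSC LD and 409.1 ± 36.0 in PMN-MDSC Ctrl (SD, n = 3 each), a log2 difference of 1.32 ± 0.24 (limma adjusted p = 0.00295). The other two annexins that rose were Anxa7 (0.40, limma adjusted p = 0.0237, lost without PMN-MDSC LD replicate 1 at 0.0575, without Ctrl replicate 2 at 0.0524, without Ctrl replicate 3 at 0.099 and with the PMN-MDSC libraries alone at 0.0534) and Anxa11 (0.66, limma adjusted p = 0.00881).

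Fpr2, a receptor for formyl peptides and annexin A1, was higher in the same cells. It had 3155.5, 2885.9 and 3745.5 normalized counts in PMN-MDSC LD, against 1724.0, 1389.6 and 1565.9 in PMN-MDSC Ctrl, with a log2 difference of 1.06 ± 0.26 (limma adjusted p = 0.0153). It missed the threshold without PMN-MDSC Ctrl replicate 2, Ctrl replicate 3 or LD replicate 3 (adjusted p = 0.0597, 0.0518 and 0.0586). Of 2 tested formyl peptide receptor genes, Fpr2 was the one that passed. The median log2 difference of the 2 was 1.09, above that of Fpr2, so Fpr1, the other gene, did not have a smaller difference. Fpr1 had 3.4 to 35.4 normalized counts in the M-MDSC libraries, which enter the shared spread. Its missed call therefore does not set Fpr2 apart. The profiles closest to Anxa1 over the 12 libraries were those of Fmo5, with a root-mean-square difference of 0.162, and Rasa2, with 0.174, the smallest values found for any of the 9 genes.

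The stefins were read with the near-identity of their genes in view. Stfa1, at chr16:36277148-36285371, and Stfa2l1, at chr16:36156811-36161948, both encode stefin A proteins, which block papain-like cysteine proteases. Of the 50-base windows along the Stfa1 transcript 26.9% also occur in BC100530 or BC117090, and of those along Stfa2l1 24.6% also occur in Stfa2 or Gm49652, whereas the other 7 genes share none with another gene. Stfa1 and BC100530 transcripts were 97.1% identical, Stfa2l1 and Stfa2 96.5%, and Stfa1 and Stfa2l1 81.4%. How reads that fit several copies were assigned is not given in the sources used here. The coding sequences of both pairs, from start to stop codon in GENCODE M21 on GRCm38, are shown because reads from the lower case stretches cannot tell the copies apart, and capitals mark the bases that differ within a pair, 6 of 294 for Stfa1 and BC100530 and 11 of 312 for Stfa2l1 and Stfa2, of which the first 300 bases are given.
Stfa1: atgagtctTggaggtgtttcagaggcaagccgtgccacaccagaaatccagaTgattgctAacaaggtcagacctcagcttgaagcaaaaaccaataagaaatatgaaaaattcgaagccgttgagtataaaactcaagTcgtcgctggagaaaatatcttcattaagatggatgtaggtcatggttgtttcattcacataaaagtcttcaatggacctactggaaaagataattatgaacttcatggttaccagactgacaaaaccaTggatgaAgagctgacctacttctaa
BC100530: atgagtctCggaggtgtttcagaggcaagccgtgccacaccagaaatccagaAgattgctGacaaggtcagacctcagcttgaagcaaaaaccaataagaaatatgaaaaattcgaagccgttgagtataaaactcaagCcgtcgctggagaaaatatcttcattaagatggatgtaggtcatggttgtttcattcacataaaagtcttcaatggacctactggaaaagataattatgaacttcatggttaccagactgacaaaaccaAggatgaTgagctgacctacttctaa
Stfa2l1: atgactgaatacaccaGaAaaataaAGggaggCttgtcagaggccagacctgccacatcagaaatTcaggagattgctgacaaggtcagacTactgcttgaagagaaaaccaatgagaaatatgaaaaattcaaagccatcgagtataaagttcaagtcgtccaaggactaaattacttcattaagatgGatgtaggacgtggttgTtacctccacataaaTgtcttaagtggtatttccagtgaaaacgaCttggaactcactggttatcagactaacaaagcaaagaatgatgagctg
Stfa2: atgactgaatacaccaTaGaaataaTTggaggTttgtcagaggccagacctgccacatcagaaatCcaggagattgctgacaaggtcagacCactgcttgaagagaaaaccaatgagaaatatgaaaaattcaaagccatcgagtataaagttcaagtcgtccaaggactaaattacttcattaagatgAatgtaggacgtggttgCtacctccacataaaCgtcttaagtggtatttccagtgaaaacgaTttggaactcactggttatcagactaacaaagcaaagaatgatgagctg
The longest stretch without a difference was 128 bases in the Stfa1 pair (bases 141 to 268 of the coding sequence) and 97 bases in the Stfa2l1 pair (bases 93 to 189).

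Stfa1 had 196.1, 283.9 and 207.5 normalized counts in PMN-MDSC LD, against 24.5, 32.5 and 51.1 in PMN-MDSC Ctrl. The groups were far apart relative to the spread within each. It rose by 2.68 ± 0.72 (SE) on the log2 scale, or 6.41-fold (limma adjusted p = 0.0228). It missed the threshold without PMN-MDSC Ctrl replicate 1, Ctrl replicate 2, LD replicate 2 or LD replicate 3 (adjusted p = 0.07, 0.0662, 0.0656 and 0.0549), with no minimum level (0.0555) and with a pseudocount of 0.5 (0.0577).

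Stfa2l1 had 1762.4, 1822.4 and 1858.0 normalized counts in PMN-MDSC LD, against 1039.5, 703.1 and 917.8 in PMN-MDSC Ctrl. Every LD library was above every Ctrl library, and the 3 LD libraries lay within 1762.4 to 1858.0. The log2 difference of 1.05 ± 0.45 (SE), 2.07-fold, did not pass the test that shares its spread over all 4 groups (limma adjusted p = 0.127). With the PMN-MDSC libraries fitted alone it passed at the same log2 difference (limma adjusted p = 0.000638), as it did with edgeR on recovered reads (1.0, adjusted p = 0.0019), DESeq2 (1.03, adjusted p = 1.26e-07) and a pseudocount of 8 (1.04, adjusted p = 0.00497). In the M-MDSC libraries, which enter the shared spread, Stfa2l1 had 0.0 to 2.9 normalized counts.

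The other stefin genes of the cluster were lower in level than Stfa2l1. Stfa2 had 70.3, 94.1 and 92.6 normalized counts in PMN-MDSC LD, against 18.4, 18.5 and 16.0 in PMN-MDSC Ctrl, and its log2 difference was 2.21 ± 0.57 (limma adjusted p = 0.0184), lost in 4 of 12 fits with a library left out (adjusted p up to 0.0661), with a pseudocount of 0.5 (0.0516) and with no minimum level (0.0501). BC100530 had 73.0, 30.9 and 74.3 normalized counts in PMN-MDSC LD, against 8.2, 0.0 and 6.4 in PMN-MDSC Ctrl, a log2 difference of 3.79 ± 0.94 (limma adjusted p = 0.0157) that was 2.77 without PMN-MDSC Ctrl replicate 2 (adjusted p = 0.0633) and 3.58 without LD replicate 3 (adjusted p = 0.0557), and that did not pass with DESeq2 (3.63, adjusted p = 0.156). Both rose, and both share sequence with a gene of the pair shown above. Gm5483, named Cstdc4 in RefSeq, had 550.5, 541.3 and 593.2 normalized counts in PMN-MDSC LD, against 285.6, 247.0 and 309.7 in PMN-MDSC Ctrl. Its log2 difference of 1.0 ± 0.63 did not pass (limma adjusted p = 0.301), though it did with the PMN-MDSC libraries alone (adjusted p = 0.00113), DESeq2 (3.75e-05) and a pseudocount of 8 (0.0255). In the list of stefins and cystatins, 3 of 8 tested genes rose and none fell, and 1 of 9 tested cysteine cathepsins, Ctsc, rose (0.78 ± 0.23, limma adjusted p = 0.0348), which was 0.49 without LD replicate 1 (adjusted p = 0.0953) and also missed the threshold without Ctrl replicate 2 (0.122) or Ctrl replicate 3 (0.152), with no minimum level (0.0616), with edgeR (0.0559) and with the PMN-MDSC libraries alone (0.0842).

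Since close copies can trade reads, all stefin A genes in the table were also summed into 1 value. The sum was 2730.8, 2841.7 and 2877.5 normalized counts in PMN-MDSC LD, against 1403.7, 1033.6 and 1331.2 in PMN-MDSC Ctrl. It was higher in each LD library than in any Ctrl library. The log2 difference was 1.18 ± 0.51 (SE), which did not pass in the fit over all 4 groups (limma adjusted p = 0.131) and passed with the PMN-MDSC libraries alone (1.18 ± 0.12, limma adjusted p = 0.000167). Stfa2l1 supplied 64.4% ± 0.245 of the sum in PMN-MDSC LD and 70.3% ± 3.25 in PMN-MDSC Ctrl, Gm5483 19.9% ± 0.806 and 22.5% ± 1.89, and Stfa1 8.13% ± 1.61 and 2.91% ± 1.07 (SD, n = 3 each). Within the family the share of Stfa1 was therefore 7.18% to 9.99% in LD libraries and 1.74% to 3.84% in Ctrl libraries.

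**Figure D2:**
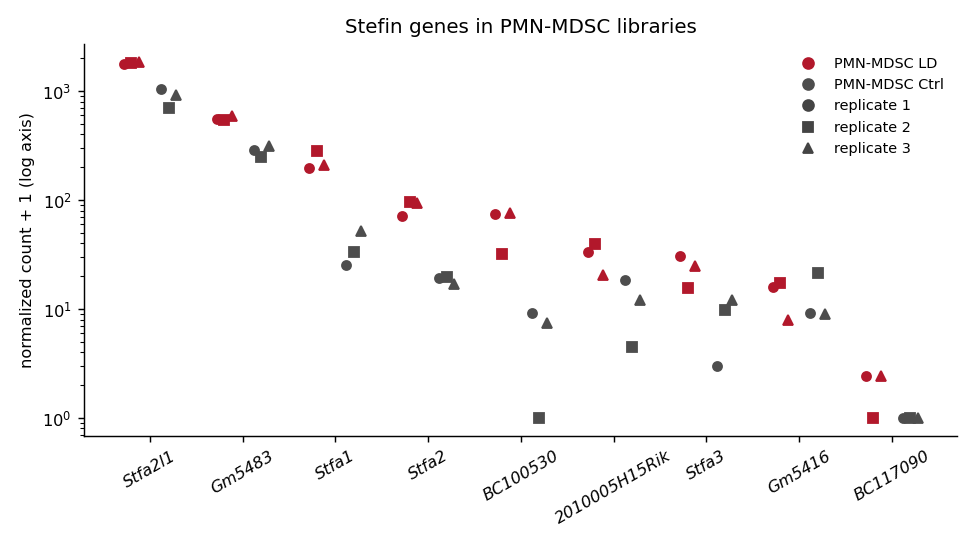
Normalized count + 1 on a log axis for the stefin A genes in the 6 PMN-MDSC libraries, LD left of Ctrl for each gene, with symbols for replicates 1 to 3. Stfa2l1 and Gm5483 lead the family in both groups, and for Stfa1 and Stfa2 the LD libraries sit above the Ctrl libraries by a wider margin, with log2 differences of 2.68 and 2.21 against 1.05 for Stfa2l1.

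The upstream windows of the genes were compared because Stfa1 and Retnlg both rose. RefSeq windows on GRCm38.p6, from 250 bases before to 50 after a transcript start, were matched for 9 of 9 genes. For 7 genes that start is the end of the span given here, and for Tgm3 and Hdc it lies 24546 and 5347 bases inside the span, so those windows belong to another start than the outermost one. The 4 motifs searched, on both strands, were TTCNNNGAA (STAT factors), TTGCNNAA (C/EBP factors), GAGGAAGT (PU.1) and TGANTCA (AP-1). The C/EBP letters occurred in 4 of the 9 windows (Retnlg, Stfa1, Anxa1 and Tgm3) and in 10.8% of 32851 windows of all genes. The AP-1 letters occurred in 1 of 9 (Prok2) and 7.81% of all, and the STAT and PU.1 letters in 0 of 9 and in 8.3% and 3.2% of all. A match of letters is a description and not a binding site. The windows of Retnlg, Stfa1 and Stfa2l1, all 3 on chromosome 16, are shown with the C/EBP match in capitals.
Retnlg: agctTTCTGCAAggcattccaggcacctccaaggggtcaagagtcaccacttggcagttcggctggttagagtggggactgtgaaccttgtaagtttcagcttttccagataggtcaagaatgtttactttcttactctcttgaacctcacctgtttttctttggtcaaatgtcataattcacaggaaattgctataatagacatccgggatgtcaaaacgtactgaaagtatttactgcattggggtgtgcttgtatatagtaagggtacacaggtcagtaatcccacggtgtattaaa
Stfa1: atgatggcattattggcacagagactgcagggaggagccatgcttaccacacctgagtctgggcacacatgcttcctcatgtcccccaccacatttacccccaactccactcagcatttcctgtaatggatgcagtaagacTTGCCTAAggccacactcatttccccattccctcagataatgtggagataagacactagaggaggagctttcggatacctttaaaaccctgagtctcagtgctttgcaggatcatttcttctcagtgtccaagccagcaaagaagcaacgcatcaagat
Stfa2l1: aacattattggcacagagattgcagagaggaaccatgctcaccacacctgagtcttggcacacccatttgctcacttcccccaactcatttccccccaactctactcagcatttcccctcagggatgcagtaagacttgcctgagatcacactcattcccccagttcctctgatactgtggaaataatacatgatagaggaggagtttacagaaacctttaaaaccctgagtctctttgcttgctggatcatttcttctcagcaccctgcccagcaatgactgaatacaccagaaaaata
The windows cover chr16:48872358-48872657, chr16:36276898-36277197 and chr16:36156561-36156860, all on the plus strand. The match lay 246 bases before the start in Retnlg and 109 bases before it in Stfa1, and the windows of Stfa1 and Stfa2l1 were 85% identical over 274 aligned bases.

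Wfdc17, at chr11:83704056-83706269, was the one gene of the 9 that fell. It encodes a small secreted protein with a whey acidic protein domain, known from activated macrophages in mice. It had 937.3, 126.5 and 124.8 normalized counts in PMN-MDSC LD, against 1404.7, 1024.0 and 1080.6 in PMN-MDSC Ctrl. LD replicate 1 was close to the Ctrl libraries and LD replicates 2 and 3 were far below them. The log2 difference was -2.23 ± 0.52 (SE), a 4.7-fold lower level (limma adjusted p = 0.0118). Without LD replicate 1 it was -3.19 (adjusted p = 4.74e-08), and without LD replicate 3 it missed the threshold (-1.75, adjusted p = 0.0525). It did not pass with edgeR on recovered reads (-1.57, adjusted p = 0.0601), and DESeq2 returned no adjusted p for it. A list of 8 macrophage markers summed to 707.4, 431.0 and 403.9 normalized counts in PMN-MDSC LD, against 378.5, 454.4 and 352.8 in PMN-MDSC Ctrl. Among the LD libraries the sum was highest in the one with the most Wfdc17. Among the Ctrl libraries it was highest in the one with the least Wfdc17 (454.4, with 1024.0 of Wfdc17). The part of these markers in the Wfdc17 values was not tested. Of 3 tested genes with the whey acidic protein domain, Wfdc17 was the one that passed. The profiles closest to Wfdc17 over the 12 libraries were those of Klf11, with a root-mean-square difference of 0.545, and Abca1, a cholesterol exporter, with 0.601. Abca1 averaged 101.8 ± 71.4 normalized counts in PMN-MDSC LD and 670.4 ± 126.7 in PMN-MDSC Ctrl (SD, n = 3 each).

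Tgm3, at chr2:129987794-130050399, encodes a transglutaminase that crosslinks proteins, best known from the epidermis. It had 274.6, 920.8 and 1100.8 normalized counts in PMN-MDSC LD, against 152.0, 96.7 and 79.8 in PMN-MDSC Ctrl. All LD libraries were above all Ctrl libraries, with LD replicate 1 the nearest to them. Tgm3 rose by 2.62 ± 0.51 (SE) on the log2 scale, or 6.14-fold (limma adjusted p = 0.00433), and 3.24 without LD replicate 1 (adjusted p = 0.00036). It passed with each of the 12 libraries left out in turn. Of 4 tested transglutaminase genes, Tgm3 was the one that passed in PMN-MDSC. A miRNA gene, Mir6339, lies on the opposite strand within its span.

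Asprv1, at chr6:86628174-86629710, encodes a retroviral-like aspartic protease, also best known from skin. It had 3972.4, 5195.2 and 5260.0 normalized counts in PMN-MDSC LD, against 2900.2, 2476.8 and 2351.2 in PMN-MDSC Ctrl. The groups did not overlap. The log2 difference of 0.89 ± 0.53 (SE), 1.86-fold, did not pass the test over all 4 groups (limma adjusted p = 0.272). It passed with the PMN-MDSC libraries alone (0.89, limma adjusted p = 0.00112), with edgeR on recovered reads (0.86, adjusted p = 0.00879), with DESeq2 (0.90, adjusted p = 3.5e-06) and with a pseudocount of 8 (0.89, adjusted p = 0.0237). With the PMN-MDSC libraries alone 8 of the 9 genes passed, 7 of them higher and 1 lower. Of 8 tested aspartic proteases, 1 fell and none rose in the fit over all groups, the one that fell being Ddi2 (-0.53, limma adjusted p = 0.00932). A list of 9 measured keratinocyte markers, chosen because Tgm3 and Asprv1 are skin genes, summed to 0.0 to 1.5 normalized counts in PMN-MDSC LD and 0.9 to 12.8 in PMN-MDSC Ctrl. Of the 9 markers 7 were at 0 in all 3 LD libraries and 5 in all 3 Ctrl libraries, the keratins Krt5 and Krt14 in LD only.

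Hdc, on the minus strand at chr2:126593659-126624025, encodes histidine decarboxylase, the enzyme that makes histamine. It had 15086.4, 15279.5 and 18051.8 normalized counts in PMN-MDSC LD, against 15024.1, 14154.3 and 14710.7 in PMN-MDSC Ctrl. The LD libraries were barely above the Ctrl libraries. The log2 difference was 0.14 ± 0.35 (SE), which did not pass (limma adjusted p = 0.83). Of 3 tested genes of histamine synthesis, transport and reception 0 passed in PMN-MDSC with limma, 1 had an unadjusted limma p under 0.05, and 1 passed with edgeR and 1 with DESeq2, the histamine receptor gene Hrh2 in each case, which is named here after its values were seen. Histamine is best known from basophils and mast cells, and of 11 markers of those cells 8 were at 0 in PMN-MDSC LD, Mcpt8 and Fcer1a among them, and 7 in PMN-MDSC Ctrl. The summed level of the 11 was 89.7 to 198.8 in PMN-MDSC LD and 80.9 to 124.5 in PMN-MDSC Ctrl, nearly all of it Kit.

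**Figure D3:**
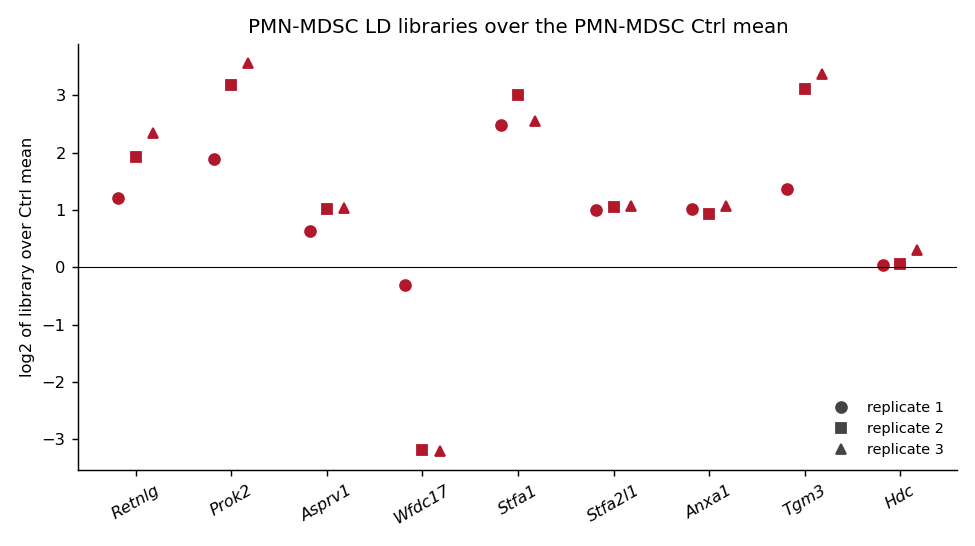
The log2 ratio of each of the 3 PMN-MDSC LD libraries to the mean of the PMN-MDSC Ctrl libraries, for the 9 genes, with symbols for replicates 1 to 3. Replicate 1 departed less from the Ctrl mean than replicates 2 and 3 for Retnlg (1.22), Prok2 (1.89), Tgm3 (1.37) and Wfdc17 (-0.31), whereas the 3 libraries lay within 0.94 to 1.08 for Anxa1.

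The 9 genes did not move as 1 block across the PMN-MDSC libraries. Over the 6 libraries the closest pair of centred log2 profiles was Stfa2l1 and Anxa1, with a root-mean-square difference of 0.162, followed by Asprv1 and Anxa1 (0.173) and Asprv1 and Stfa2l1 (0.193). Prok2 and Tgm3 differed by 0.444, and Wfdc17 differed from each of the other genes by 1.56 to 3. Of the 8 genes with higher values in LD, all but Anxa1 had their lowest LD value in replicate 1, where Wfdc17 had its highest. In that library early granule genes (5 genes, Mpo and Elane among them) summed to 547.8 normalized counts, against 57.4 and 115.0 in LD replicates 2 and 3 and 34.3 to 46.3 in PMN-MDSC Ctrl. The part of this difference between libraries in the values above was not tested beyond leaving the library out.

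Genes that mark the stage of neutrophil development were read beside these values. Of 13 tested immature neutrophil genes 9 rose in PMN-MDSC and none fell, and their sum was 386412.2, 298782.9 and 389201.6 in LD, against 141891.6, 149165.7 and 153624.1 in Ctrl. Cybb, a subunit of the NADPH oxidase, averaged 17583.6 ± 2843.1 in LD and 7599.9 ± 790.0 in Ctrl (SD, n = 3 each), a log2 difference of 1.20 (limma adjusted p = 0.000126). Cd177, a neutrophil surface protein, averaged 18727.5 ± 1727.7 in LD and 6461.7 ± 235.4 in Ctrl (SD, n = 3 each), a log2 difference of 1.53 (limma adjusted p = 0.000877). Of 20 mature neutrophil genes 2 rose (Mmp25 and Fpr2) and 3 fell (Csf3r, Il1b and Ifitm1). Csf3r, the G-CSF receptor, averaged 98750.7 ± 3030.9 in LD and 160134.2 ± 8292.6 in Ctrl (SD, n = 3 each), and fell by 0.70 on the log2 scale (limma adjusted p = 0.000947). The mature list had a median log2 difference of 0.05, against 1.22 for the immature list. The part of the immature genes in the differences of the secreted-protein genes was not tested.

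In M-MDSC, 2 of the 9 genes rose after lymphodepletion, Hdc and Retnlg, none fell and 7 did not pass, where 3.01% of all tested genes passed, 2.54% upward and 0.468% downward. In 3 genes, Retnlg, Tgm3 and Hdc, all LD libraries were above all Ctrl libraries, where groups did not overlap in 23.1% of all tested genes (higher in LD in 10.6%). The median log2 difference was 0.45 over the 9 genes, which is the Asprv1 value, and -0.04 over all tested genes. Of the 7 that did not pass, Prok2, Stfa1, Stfa2l1 and Asprv1 had 0 to 18 reads over the 3 libraries of a group. They passed the minimum level through PMN-MDSC, so neither their missed calls nor the median of 0.45 shows how the 9 genes changed in M-MDSC.

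Hdc had 319.5, 79.0 and 159.6 normalized counts in M-MDSC LD, against 20.8, 25.8 and 42.6 in M-MDSC Ctrl. Hdc rose by 2.45 ± 0.35 (SE) on the log2 scale, or 5.45-fold (limma adjusted p = 0.00151), and it passed in each fit with a library left out. Retnlg was low in these cells, at 33.3, 17.8 and 51.2 in M-MDSC LD, against 5.2, 17.2 and 4.5 in M-MDSC Ctrl. Its log2 difference was 1.92 ± 0.43 (limma adjusted p = 0.0243), lost without M-MDSC Ctrl replicate 1 (adjusted p = 0.113), Ctrl replicate 3 (0.114), LD replicate 1 (0.0677) or LD replicate 3 (0.108). It also missed the threshold with edgeR (adjusted p = 0.0587) and with the M-MDSC libraries alone (0.109).

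Tgm3 had 142.0, 119.7 and 191.1 normalized counts in M-MDSC LD, against 16.9, 57.4 and 57.2 in M-MDSC Ctrl. Its log2 difference of 1.92 ± 0.51 did not pass (limma adjusted p = 0.0571), and it passed with the M-MDSC libraries alone (adjusted p = 0.0194), with DESeq2 (1.78, adjusted p = 0.042) and without PMN-MDSC LD replicate 1 (1.92, adjusted p = 0.0115). Tgm2, another transglutaminase, rose in M-MDSC (1.29 ± 0.29, limma adjusted p = 0.0271) and missed the threshold without any 1 of Ctrl replicates 1 to 3 or LD replicate 3 (adjusted p up to 0.111) and with no minimum level (0.0512). Anxa1 had 5248.4, 3973.8 and 4354.4 in M-MDSC LD, against 3308.0, 4518.3 and 3676.1 in M-MDSC Ctrl, and these groups overlapped (0.24 ± 0.12, limma adjusted p = 0.423). Of the 9 tested annexins 0 passed in M-MDSC with limma, edgeR or DESeq2, and 1 had an unadjusted limma p under 0.05. Wfdc17 had 418.7, 389.7 and 375.3 in M-MDSC LD, against 418.9, 436.3 and 374.2 in M-MDSC Ctrl, and these groups overlapped too (-0.05 ± 0.52, limma adjusted p = 0.996).

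The 4 remaining genes were near the detection limit in M-MDSC. Prok2 had no read in the 3 M-MDSC LD libraries and 2 reads over the M-MDSC Ctrl libraries. Stfa2l1 had 1 read over the M-MDSC LD libraries and 4 over Ctrl, Stfa1 had 17 and 1, and Asprv1 had 18 and 9. At that depth no difference in them could be read, and leaving out M-MDSC LD replicate 1 turned the direction of Asprv1 (log2 difference -0.33 without it and 0.45 with it, neither passing). Stfa1 passed in M-MDSC without LD replicate 3 (2.68, limma adjusted p = 0.0265) and with DESeq2 (4.22, adjusted p = 0.0217). Its libraries held 6, 11 and 0 reads in LD replicates 1 to 3 and 0, 0 and 1 in Ctrl. The library left out was thus the LD library with 0 reads, and these calls are not read as a difference.

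Immature neutrophil genes were also higher in M-MDSC LD. Of 13 tested immature neutrophil genes 8 rose and none fell. Their sum was 87270.4, 37060.1 and 51380.8 in M-MDSC LD replicates 1 to 3 and 24693.2 to 30087.7 in M-MDSC Ctrl. Among the LD libraries Hdc was likewise highest in replicate 1, whereas Retnlg was highest in replicate 3. Ltf, lactoferrin, rose by 3.56 on the log2 scale, Itgb2l by 3.74 and Camp by 3.52 (limma adjusted p = 0.000158, 0.000158 and 0.000172). Of 5 tested early granule genes 4 rose and none fell, with sums of 7419.5, 1571.7 and 1976.2 in M-MDSC LD and 214.3 to 245.7 in M-MDSC Ctrl. With a library left out, the Mpo call was lost in 5 of 12 fits and the Elane call in 2. The 20 mature neutrophil genes summed to 7551.1 to 9939.7 in M-MDSC LD and 9166.7 to 10122.7 in M-MDSC Ctrl. Basophil and mast cell markers summed to 38.2 to 121.7 in M-MDSC LD and 5.7 to 24.7 in M-MDSC Ctrl, with 6 and 3 of 11 at 0. Most of these sums was Kit, at 91.3, 33.1 and 44.3 in LD and 6.5, 5.7 and 15.7 in Ctrl. Kit was the one gene of them tested, and it rose (2.47, limma adjusted p = 0.0086), so the sums do not show a rise of the list. The part of any of these marker lists in the Hdc and Retnlg values was not tested.

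**Figure D4:**
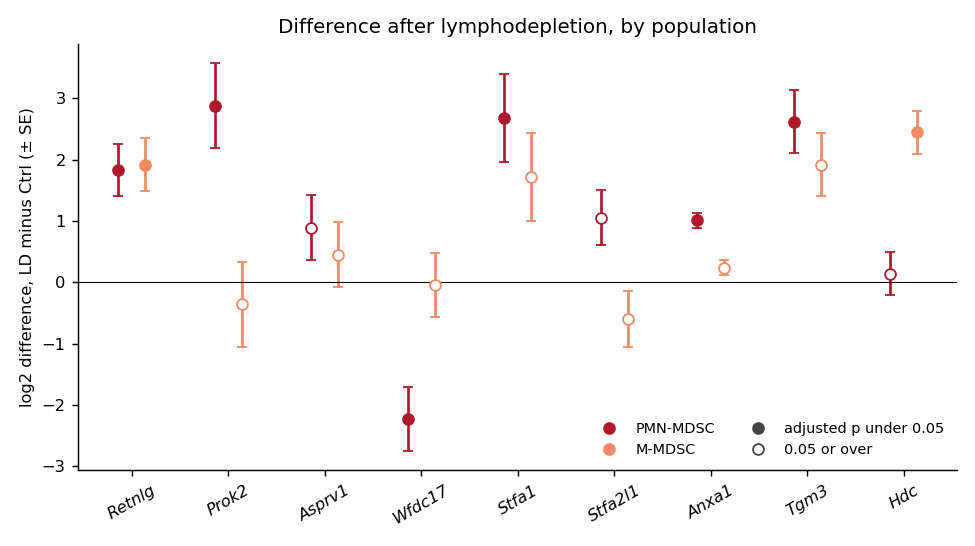
The log2 difference between LD and Ctrl with its standard error for the 9 genes in PMN-MDSC and M-MDSC, filled where the limma adjusted p was under 0.05. Prok2, Stfa1 and Tgm3 have the largest upward differences in PMN-MDSC (2.88, 2.68 and 2.62), and Hdc stands at 0.14 in PMN-MDSC and 2.45 in M-MDSC.

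Whether the difference after lymphodepletion itself differed between the populations was tested as an interaction. It passed for 2 of the 9 genes, where 2.25% of all tested genes passed (1.07% with a higher difference in PMN-MDSC and 1.18% with a lower one). The Anxa1 difference was larger in PMN-MDSC than in M-MDSC by 0.77 ± 0.17 (SE) on the log2 scale (limma adjusted p = 0.0336). For Hdc the interaction was -2.31 ± 0.50, a smaller difference in PMN-MDSC than in M-MDSC (limma adjusted p = 0.0304). Both calls were lost with no minimum level (adjusted p = 0.0571 for Anxa1 and 0.0559 for Hdc), and with a library left out the call was lost in 9 of 12 fits for Anxa1 and 8 of 12 for Hdc. For Prok2 (3.24 ± 0.98, limma adjusted p = 0.095) and Wfdc17 (-2.18 ± 0.74, limma adjusted p = 0.138) the interaction passed without PMN-MDSC LD replicate 1 (3.74, adjusted p = 0.0402, and -3.14, adjusted p = 1.62e-06). Prok2 had 0 reads in M-MDSC LD and 2 in M-MDSC Ctrl. Its interaction therefore sets the PMN-MDSC difference against the detection limit and cannot compare the populations. For Retnlg the interaction was -0.10 ± 0.61 (limma adjusted p = 0.955), so the differences of 1.83 in PMN-MDSC and 1.92 in M-MDSC were not told apart.

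Levels in the populations are given as a description, since the genes were picked as PMN-MDSC genes. All PMN-MDSC libraries were above all M-MDSC libraries for 8 of the 9 genes in LD and 9 of 9 in Ctrl, where PMN-MDSC was higher without overlap for 36.5% and 39.1% of all tested genes. In LD the mean in PMN-MDSC was 884 times that in M-MDSC for Retnlg, 86.8 times for Hdc, 6.61 times for Anxa1 and 5.07 times for Tgm3. In Ctrl it was 918 times for Retnlg, 492 times for Hdc, 3.86 times for Anxa1, 2.85 times for Wfdc17 and 2.5 times for Tgm3. The M-MDSC means behind the Retnlg and Hdc ratios rest on 119 and 696 reads in LD and on 34 and 135 in Ctrl, and their libraries differ as given above. No ratio is given where M-MDSC had fewer than 20 reads, apart from the bound for Prok2. Asprv1 averaged 4809.2 normalized counts in PMN-MDSC LD and 4.6 in M-MDSC LD (18 reads), and 2576.1 in PMN-MDSC Ctrl and 2.2 in M-MDSC Ctrl (9 reads). Stfa2l1 averaged 886.8 in PMN-MDSC Ctrl and 1.1 in M-MDSC Ctrl (4 reads), and Stfa1 averaged 229.2 in PMN-MDSC LD and 4.6 in M-MDSC LD (17 reads). For Prok2 in LD, against 0 reads in M-MDSC, it was at least 269-fold higher on a floor of 3 reads over the group. Wfdc17 was the exception in LD, where its mean of 396.2 in PMN-MDSC lay beside 394.6 in M-MDSC and the libraries overlapped.

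Per kilobase of annotated exons, Retnlg was the highest of the 9 genes in PMN-MDSC LD, at 50848 ± 18596 normalized counts per kilobase, followed by Anxa1 at 10272 ± 474, Stfa2l1 at 4330 ± 115, Asprv1 at 3109 ± 469 and Hdc at 2526 ± 260 (SD, n = 3). Wfdc17 (743 ± 879), Stfa1 (323 ± 67.2), Tgm3 (185 ± 105) and Prok2 (118 ± 59.5) followed. The neighbours Asprv1 and Hdc, Wfdc17 and Stfa1, and Tgm3 and Prok2 overlapped between libraries. In PMN-MDSC Ctrl the order was Retnlg at 13882 ± 3139, Anxa1 at 5090 ± 59.9, Hdc at 2290 ± 69.0, Wfdc17 at 2195 ± 385, Stfa2l1 at 2117 ± 406 and Asprv1 at 1665 ± 186, then Stfa1 at 50.7 ± 19.2, Tgm3 at 26.5 ± 9.13 and Prok2 at 16.9 ± 12.1 (SD, n = 3). Each gene from Hdc to Asprv1 overlapped between libraries with the next in this order, as did Stfa1 and Tgm3, and Tgm3 and Prok2. The length was the union of all annotated exons, 6389 bases for Hdc and 2911 for Anxa1. Their longest protein-coding transcripts have 2392 and 1674 bases, on which both would stand higher, so the place of Hdc in the order depends on this choice.

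For the remaining genes the closest profiles over the 12 libraries, by root-mean-square difference of centred log2 values, were as follows. Asprv1 was closest to Cxcr2, a neutrophil chemokine receptor (0.55), and Dhrs9 (0.725). Stfa2l1 was closest to Steap4 (0.841) and Cxcr2 (0.87), and Stfa1 to Rdh12 (1.03) and Ankrd22 (1.09). Tgm3 was closest to Ptgs1, cyclooxygenase 1 (0.771), and Hsd11b1 (0.812). Hdc was closest to Slc2a3, a glucose transporter (0.426), and Slc40a1, the iron exporter ferroportin (0.493). These distances span both populations, and the profiles share their libraries and size factors.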

How the data were processed

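The authors deposited 1 table of normalized counts, a signal per gene in which reads were divided by 1 size factor per library. Per the submitters' processing notes, STAR 2.5.3a, HTSeq 0.6.1, DESeq2 and the mm10 build were used, and the counting options are not given in the sources used here. Whole reads were recovered from the steps of the values, 100% of which were whole within 0.001. The main test was limma 3.58.1 (R 4.3.3) on log2(normalized count + 1), with 4 group means, a trended empirical Bayes variance and genes with a mean of at least 10 over the 12 libraries. P-values were two-sided and adjusted by Benjamini-Hochberg over 11122 genes, with a threshold of 0.05, and fold changes understate low genes. Recovered reads were also tested with edgeR 4.0.16 and DESeq2 1.42.0.

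Sequences came from RefSeq (GRCm38.p6) and GENCODE M21. The 9 genes and all lists were chosen with earlier results of these data known. Besides the 9 genes, genes are named from among the up to 3 of each list with the smallest adjusted p past the threshold in each population, not all of which are printed, and the 2 genes with the most alike profile to each of the 9. Anxa7, Anxa11, Mmp25 and Il1b in PMN-MDSC, Gm5483, Hrh2, Mki67, the markers at 0 and the values of Abca1 were added after values were seen.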

Additional observations from a re-analysis of the deposited data

Results flagged for a closer look

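The difference after lymphodepletion was not the same in both populations for Anxa1, by the interaction term of limma. It was 1.01 ± 0.12 (SE) on the log2 scale in PMN-MDSC and 0.24 ± 0.12 in M-MDSC, which gives 0.77 ± 0.17 (adjusted p = 0.0336, lost in 9 of 12 fits with a library left out), and every PMN-MDSC LD library was above every PMN-MDSC Ctrl library while the M-MDSC groups overlapped.

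For Hdc the same term ran the other way. The log2 difference was 0.14 ± 0.35 in PMN-MDSC and 2.45 ± 0.35 in M-MDSC, which gives -2.31 ± 0.50 (limma adjusted p = 0.0304). This call was lost in 8 of 12 fits with a library left out. All 3 M-MDSC LD libraries were above all 3 M-MDSC Ctrl libraries. Immature neutrophil markers were also higher in these M-MDSC LD libraries, and their part in the Hdc value was not tested.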

How the results depend on the processing

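Single-gene values kept their direction and their side of the threshold in 1132 of 1274 alternatives, over 59 gene comparisons; 99 no longer passed, 29 newly passed and 14 changed sign, none of these passing. Leaving out 1 library in turn gave 889 to 2163 genes and 2 to 6 of the 9 for LD in PMN-MDSC, 192 to 548 and 1 to 3 in M-MDSC, 115 to 824 and 0 to 4 for the interaction, 7888 to 8609 and 7870 to 8335 genes for PMN-MDSC over M-MDSC in Ctrl and LD, and 1.04 to 1.26 for the stefin sum. The fewest of the 9 in PMN-MDSC, 2, came without PMN-MDSC LD replicate 3. In M-MDSC edgeR passed 1 of the 9 and DESeq2 4, with 723 genes by DESeq2 and 532 with each population fitted alone, against 335. The interaction passed 4 of the 9 with a pseudocount of 8 and 0 with no minimum level, over 125 genes with no minimum level, 692 with DESeq2 and 767 without both LD replicate 1 libraries (chosen after seeing the data), against 250. By edgeR 33.1% of its interaction calls were higher in PMN-MDSC, against 47.6%. The stefin sum passed at 1.17 with a pseudocount of 8, 1.13 with edgeR, 1.16 with DESeq2 and 1.18 with each population alone, and Stfa1 alone gave 2.68. Signs changed for Asprv1 in M-MDSC (-0.33 without LD replicate 1 or both replicate 1 libraries, -0.33 to 1.01 with 1 library left out) and in interactions for Retnlg (0.52 with a pseudocount of 8, 0.25 without both LD replicate 1 libraries, and -0.64 to 0.25 with 1 library left out), Asprv1 (-0.39 with edgeR, -0.37 with DESeq2, -0.11 to 1.23 with 1 library left out) and Stfa1 (-1.18 with edgeR, -1.53 with DESeq2); the cause was not tested. Same-numbered LD and Ctrl libraries of a population did not deviate together (r -0.0468 to 0.00052). Between the populations r was 0.208, 0.125 and 0.0675 for LD replicates 1 to 3, where each library correlated best with its own number, and -0.0368, 0.0542 and 0.135 for Ctrl, where that did not hold, so by a limit of 0.1 for every pair the numbers were not taken to pair the libraries. With a replicate block 6 of the 9 passed in PMN-MDSC, 3 in M-MDSC and 1 in the interaction, where Anxa1 (0.77, adjusted p = 0.0521) did not pass. Depth limits Prok2, Stfa1, Stfa2l1 and Asprv1 in M-MDSC to a few reads, so their M-MDSC and interaction calls are not read as differences.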
